A study of Mus musculus with 6 samples.

Results

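The nuclear-encoded subunits of oxidative phosphorylation were examined in whole-liver RNA-seq. They were taken by gene symbol, by a rule that used no measured values but was chosen with earlier results of these data known. The rule takes names that start with Nduf, then a, b, c, s or v and a digit. Names that start with Uqcr, Atp5 or Cox 4 to 8 with the letter a, b or c belong to it as well. So do the genes Sdha, Sdhb, Sdhc, Sdhd, Cyc1 and Cycs. Assembly factors such as Ndufaf and Sdhaf genes are thus outside it. The rule found 84 of the 24346 genes listed. By their names, 35 belong to complex I, 4 to complex II, 9 to complex III, 16 to complex IV and 15 to complex V, and Cycs encodes cytochrome c, the mobile electron carrier between complexes III and IV. Another 4 were set apart: Ndufa4, which despite its name is now assigned to complex IV, its homolog Ndufa4l2, and Atp5s and Atp5sl, which are not structural subunits.

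The study asks how the Mediator subunit MED23 in hepatocytes shapes the response of the liver to CCl4, a solvent whose breakdown by hepatocytes damages the liver. Both groups were male C57/BL6 mice of 8 weeks that carry the floxed med23 allele and were killed 24 h after 0.6 μl/g CCl4 in sunflower oil, and no untreated liver is among the 6 libraries. The 3 controls are med23 f/f mice (labelled wt), and the 3 med23 Δli mice (labelled med23 ko) also carry Albumin-cre, which is active in hepatocytes, so that the other cells of the liver keep the gene. Each library is a separate mouse. The value of a gene in a library is its FPKM, the fragments of the gene scaled by the length of its transcript and by all fragments of the library, and the depth of each library is unknown.

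Oxidative phosphorylation is carried out in the inner mitochondrial membrane. Complex I oxidizes NADH and complex II oxidizes succinate, both pass electrons to coenzyme Q, complex III passes them through cytochrome c to complex IV, which reduces oxygen, and complexes I, III and IV pump the protons whose return through complex V, the ATP synthase, makes ATP. The liver is rich in mitochondria, and several complex IV subunits exist in a liver form and in a form known from heart, muscle and brown fat.

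The libraries were checked first. Med23 itself had 3.42, 2.97 and 4.14 FPKM in the controls and 3.40, 3.40 and 2.91 FPKM in the libraries labelled med23 Δli, and the groups overlapped (log2 fold change −0.11, SE 0.17, adjusted p = 0.685 by limma), so the directions below rest on the labels. FPKM per gene cannot show the floxed exons alone, and a deletion of these exons in 1 cell type can leave the value of the whole gene in place. The hepatocyte gene Alb lay between 12624 and 22376 FPKM in the 6 libraries, and 2 of 13 tested hepatocyte markers passed the test, Cyp2e1 upward and Serpina1a downward. All 8 endothelial markers tested fell, with summed levels of 109 to 148 FPKM in the controls and 58.4 to 61.9 FPKM in the libraries labelled med23 Δli. Des was the single stellate cell marker of 9 tested that passed, downward, while only 1 of the 9 had a log2 fold change above 0 (median −0.45). None of the 12 macrophage, 4 neutrophil, 5 cholangiocyte and 6 proliferation markers tested passed, though 0 of the 4 neutrophil markers had a log2 fold change above 0 (median −0.50). Of 6 erythroid markers tested, Hba-a1 rose. Of 12 housekeeping genes 3 rose (25.0%, beside 11.6% of all tested genes) and 2, Actb and Gusb, fell (16.7%, beside 9.48%). In a bulk sample, fewer cells of a type and less RNA per cell cannot be told apart. The part of these differences in the values of the subunit genes was not tested.

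The subunit genes were among the abundant transcripts of the liver. The median of the 81 tested members was 174 FPKM over the 6 libraries, beside 8.44 FPKM over all 11956 tested genes, which are those with a mean of at least 0.5 FPKM. Per length, the median member of complex I stood at 126 FPKM, of complex II at 121 FPKM, of complex III at 311 FPKM, of complex IV at 278 FPKM and of complex V at 364 FPKM. Cox6a1 led at 969 FPKM and was followed by Uqcrq at 940 FPKM, Ndufa4 at 829 FPKM and Atp5k at 734 FPKM. Complex I spanned 18.2 FPKM (Ndufa11) to 331 FPKM (Ndufb9). Only 3 members were below the limit for testing, all of them tissue forms of complex IV: Cox7b2 and Cox8c, known from testis, were listed at 0 in every library, and Cox6b2, also a testis form, had 1.27, 0.647 and 0 FPKM in the controls and 0.257, 0.0413 and 0.689 FPKM in the other group.

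Most of the 81 members differed little between the groups. The log2 fold change, libraries labelled med23 Δli minus controls on the log2(FPKM + 0.1) scale, was above 0 for 66 of 81 members (81.5%), beside 52.2% of all tested genes, and its median was 0.15, beside 0.02. On this scale the change of the lowest genes is understated. It stayed within 1.5-fold in either direction for 76 of 81 members (93.8%), beside 72.9% of all tested genes. At an adjusted p under 0.05 in limma, 6 of 81 members rose (7.41%), where 11.6% of all tested genes rose, and 0 fell, where 9.48% of all tested genes fell. At an unadjusted p under 0.05 the counts were 14 higher and 1 lower, with 20.5% and 17.1% of all tested genes. Past 2-fold with an adjusted p under 0.05, 2 members rose (Cox6a2 and Ndufs5) and 0 fell, with backgrounds of 4.45% and 3.45%. The groups of 3 did not overlap for 24 members that were higher (29.6%) and for 2 that were lower (2.47%), beside 23.3% and 20.4% of all tested genes. The share of members called was thus below the background, while most of the small differences had 1 sign.

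**Figure D1:**
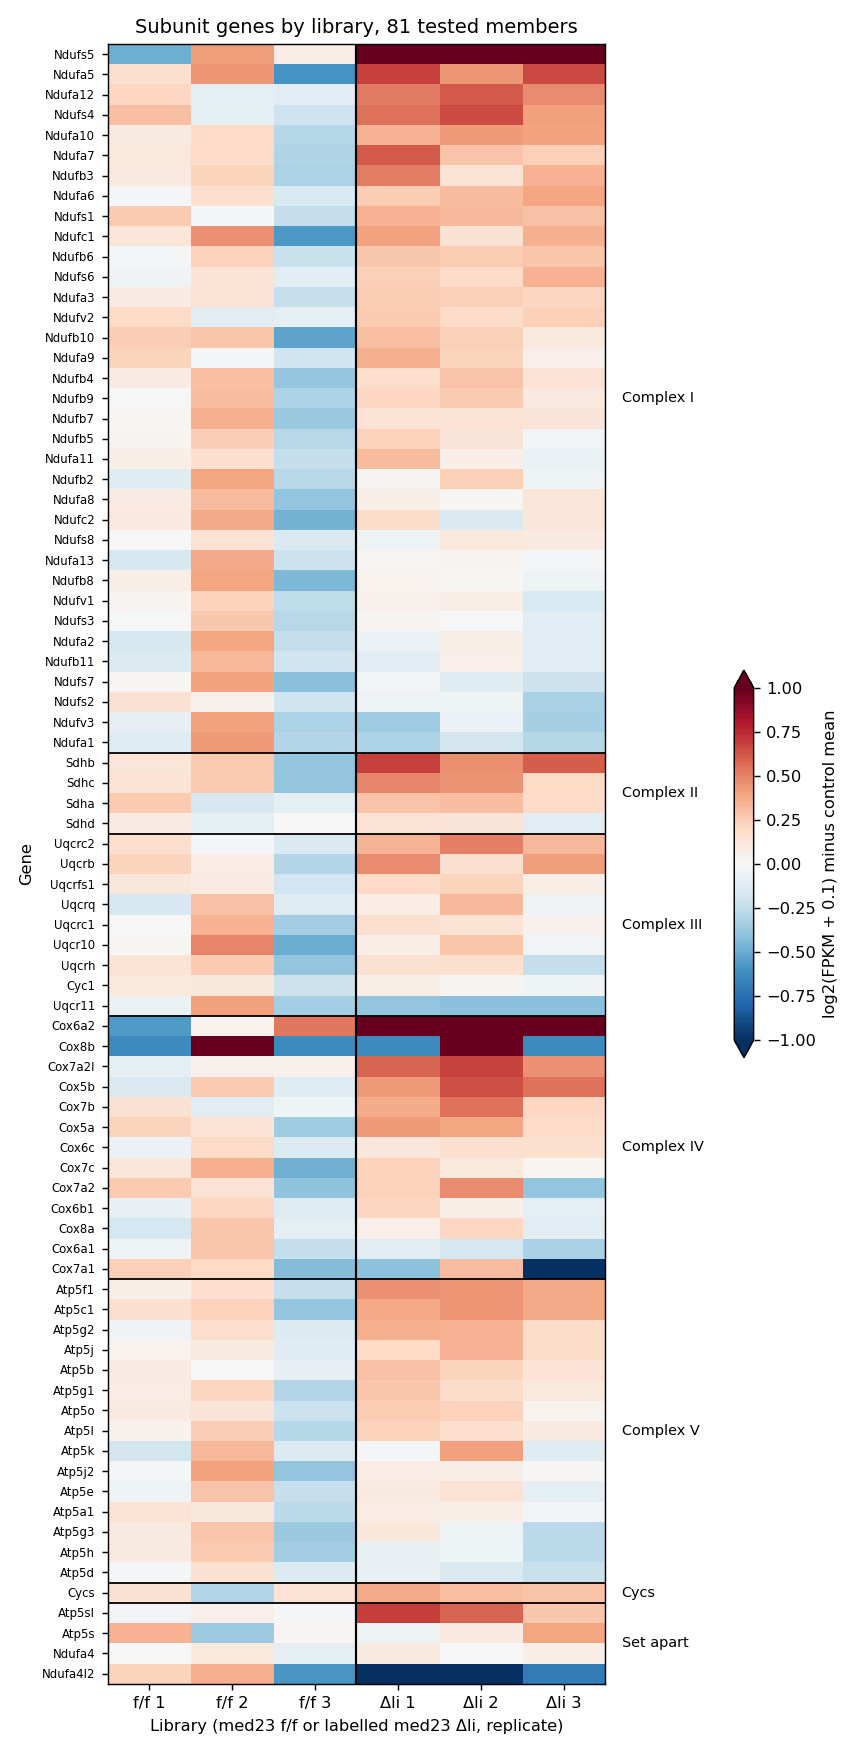
Each row is 1 of the 81 tested members, grouped by complex and ordered by log2 fold change, and each column is 1 library; colour gives log2(FPKM + 0.1) minus the mean of the 3 controls, and values beyond 1 in size take the end colours. The control labelled replicate 3 is blue in most rows and the control labelled replicate 2 is red in most, while the 3 libraries labelled med23 Δli differ less from each other.

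The size of these small differences depended on which controls were used and on the scaling. Relative to the control mean, the median member stood at 0.07, 0.23 and −0.24 (log2) in control replicates 1, 2 and 3 and at 0.21, 0.19 and 0.09 in med23 Δli replicates 1, 2 and 3, so all 3 of the latter lay between control replicates 2 and 3. Control replicate 3 held the lowest of the 6 values for 58 of 81 members, and control replicate 2 held the highest for 35. The SD of the log2 values was larger in the controls than in the other group for 71 of 81 members (87.7%), beside 72.6% of all tested genes, with a median of 0.26 against 0.11. Without control replicate 3, 46 of 81 members had a log2 fold change above 0, the median was 0.02, which is also that of all tested genes, and 4 members were higher and 2 lower, where 1723 and 1420 of the 11956 tested genes were. Without control replicate 2, 72 of 81 had a log2 fold change above 0 and the median was 0.25, and with quantile normalization of all 6 libraries 48 of 81 did and the median was 0.07. The 10 most abundant genes took 17.1%, 17.7% and 20.3% of the summed FPKM in the controls and 11.9% to 13.7% in the other group, highest in control replicate 3, and the summed hepatocyte markers had 43939, 41633 and 33792 FPKM against 32952, 35472 and 29057 FPKM. Their part in the members' values was not tested. Summed over all members, the controls had 18778, 21939 and 15735 FPKM and the other group 20647, 20894 and 18959 FPKM, or 2.94%, 3.37% and 2.62% against 3.39%, 3.21% and 3.20% of the summed FPKM of a library. These sums overlap.

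**Figure D2:**
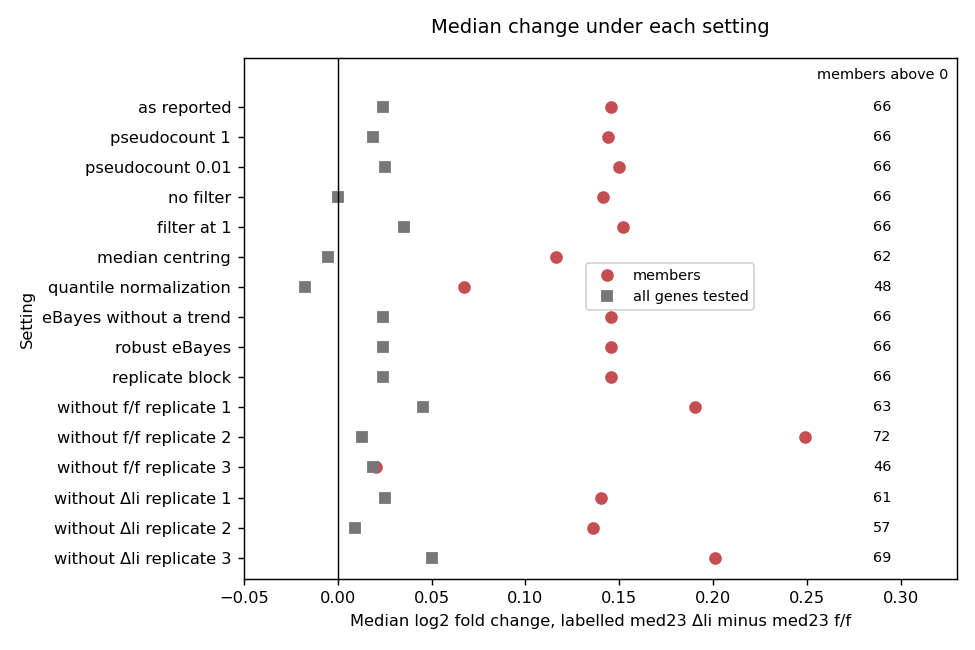
Median log2 fold change of the tested members (circles) and of all tested genes (squares) as reported and under each of the 15 alternatives, with the number of members above 0 at the right. The members' median lies between 0.12 and 0.25 in all but quantile normalization (0.07) and the setting without control replicate 3 (0.02).

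The complexes were then compared with each other. Complex I, with 35 tested members, had a median log2 fold change of 0.19, 2 members that rose (5.71%, beside 11.6% of all tested genes) and 11 that were higher with no overlap of the groups (31.4%, beside 23.3%). Complex II had the highest median, 0.32 over 4 members, of which 0 passed the test. Complex III had a median of 0.12 over 9 members, of which 0 passed. Complex IV had a median of 0.14 over 13 tested members, of which 3 rose (23.1%, beside the same 11.6%). With Ndufa4 counted in complex IV and Cox7a2l left out, an assignment chosen after seeing the data, 2 of 13 rose (15.4%) and the median was 0.12. Complex V had a median of 0.16 over 15 members, of which 0 passed. The differences between the complexes were not tested. Without control replicate 3 the medians were −0.01, 0.20, −0.06, 0.08 and 0.02 for complexes I to V, and with quantile normalization 0.08, 0.21, −0.01, 0.07 and 0.02.

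**Figure D3:**
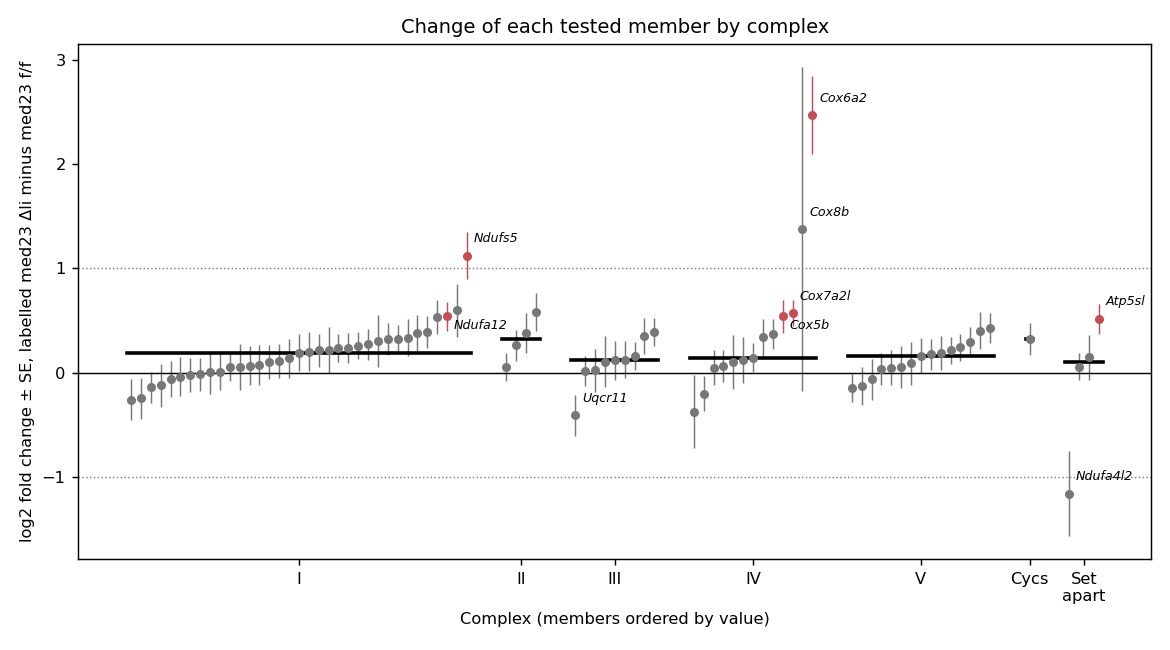
Log2 fold change (libraries labelled med23 Δli minus controls) of each tested member with its standard error from limma, by complex and ordered within it; red points passed an adjusted p under 0.05, black bars are medians and dotted lines mark 2-fold. Cox6a2 (2.47) and Ndufs5 (1.12) stand above the upper dotted line among the members that passed, and Cox8b has a standard error of 1.55.

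The share of each complex in the summed FPKM of the members was computed next. Complex I took 25.0%, 25.5% and 24.0% of the members' summed FPKM in the controls and 25.1%, 24.7% and 26.2% in the other group. Complex V took 30.2%, 29.6% and 30.2% and then 29.9%, 30.2% and 29.2%. The share of complex IV lay between 21.7% and 22.5% in all 6 libraries, and that of complex III between 15.1% and 16.4%. Complex II was the one whose shares did not overlap: it took 2.54%, 2.08% and 2.37% in the controls and 2.78%, 2.62% and 2.69% in the other group, with sums of 478, 457 and 373 FPKM against 575, 547 and 509 FPKM. Of its 4 members 0 passed the test and 1 was higher with no overlap. By FPKM, 23.3% of all tested genes were higher and 20.4% lower with no overlap.

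**Figure D4:**
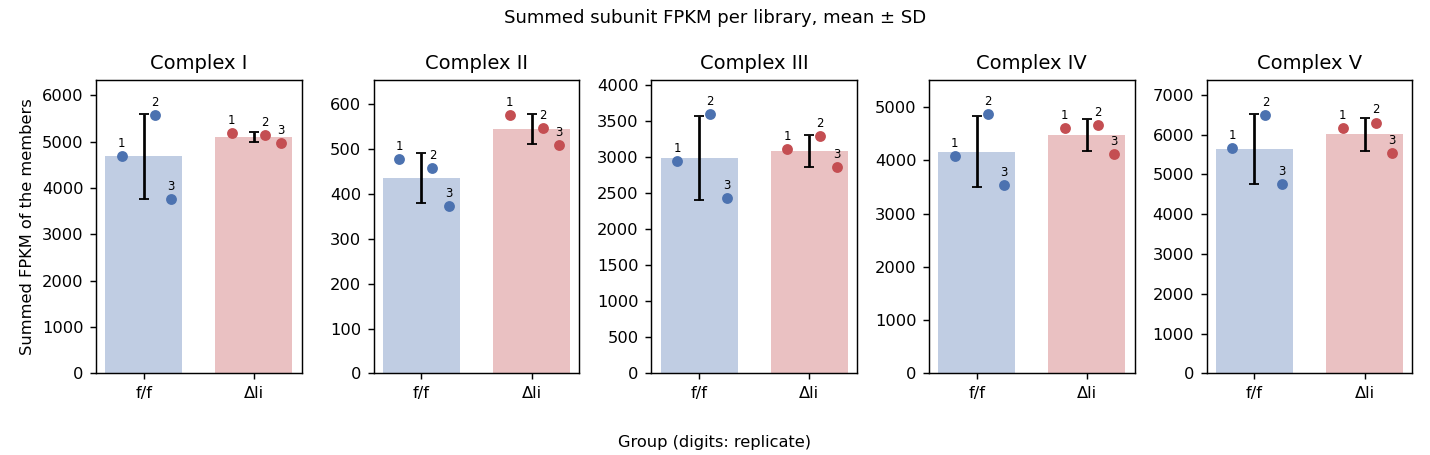
Summed FPKM of the members of each complex; points are libraries with their replicate number, bars and error bars are the mean and SD of 3 libraries. The groups overlap in complexes I, III, IV and V, while the 3 sums of complex II in the libraries labelled med23 Δli (509 to 575) lie above the controls (373 to 478).

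Complex II is succinate dehydrogenase, the enzyme that the respiratory chain shares with the tricarboxylic acid cycle. Sdhb, which encodes its iron-sulfur subunit, had 120.0, 132 and 84.6 FPKM in the controls and 177, 153 and 168 FPKM in the libraries labelled med23 Δli (log2 fold change 0.58, SE 0.18, adjusted p = 0.0575). The groups did not overlap, and the test was passed in 1 of 15 alternatives, that without control replicate 2 (0.71, adjusted p = 0.0431). Sdhc, a membrane anchor, had 119, 129 and 81.8 FPKM against 151, 148 and 124 FPKM (log2 fold change 0.38, SE 0.19, adjusted p = 0.189), with the lowest liver labelled med23 Δli below the highest control. Sdha, the flavoprotein that oxidizes succinate, had 118, 88.2 and 91.9 FPKM against 120.0, 122 and 112 FPKM (0.26, SE 0.15, adjusted p = 0.232), and here control replicate 1 reached into the other group. Sdhd, the second anchor, overlapped throughout, at 121, 107 and 115 against 126, 125 and 105 FPKM. The higher share of complex II thus lay with Sdhb and Sdhc more than with Sdhd.

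In complex I the largest difference belonged to Ndufs5, an accessory subunit at the intermembrane side of the membrane arm. It had 18.8, 35.2 and 27.5 FPKM in the controls and 62.2, 56.5 and 53.7 FPKM in the libraries labelled med23 Δli (log2 fold change 1.12, SE 0.22, adjusted p = 0.0140, limma). Every liver labelled med23 Δli stood above every control. The gene lies on the minus strand at chr4:123712710-123718202 (mm10). A processed pseudogene, BC002163 at chr16:42955631-42955949, copies its coding part: 319 bases align to bases 93 to 411 of an Ndufs5 transcript of 525 bases with 2 differences, T173C and A197G (the base of Ndufs5 first, positions counted from 1 at the 5′ end of that transcript), an identity of 99.4%. The stretch that holds both is shown 5′ to 3′ for the gene and its copy, with the differing bases in capitals:
Ndufs5: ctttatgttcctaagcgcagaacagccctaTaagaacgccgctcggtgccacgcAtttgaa
BC002163: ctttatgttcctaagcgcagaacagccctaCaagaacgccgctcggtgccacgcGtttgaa

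BC002163 was listed at 43.5, 71.3 and 46.7 FPKM in the controls and at 37.0, 74.7 and 1.44 FPKM in the libraries labelled med23 Δli. Its values were thus above those of the gene in 4 of 6 libraries and lowest in med23 Δli replicate 3. The sums of Ndufs5 and BC002163 were 62.2, 106 and 74.2 FPKM in the controls and 99.2, 131 and 55.1 FPKM in the other group, which overlap. With the sum in place of Ndufs5, a setting chosen after seeing the data, the log2 fold change was 0.18 (SE 0.33, adjusted p = 0.717 by limma). With BC002163 weighted by its length relative to the Ndufs5 transcript, likewise chosen after seeing the data, the sums were 45.2, 78.5 and 55.9 FPKM against 84.7, 102 and 54.5 FPKM, which overlap, with a log2 fold change of 0.42 (SE 0.27, adjusted p = 0.302 by limma). How the authors divided reads that fit both is not given in the sources used here, so the rise of Ndufs5 is uncertain. The call for Ndufs5 alone was also lost without any 1 of the 3 libraries labelled med23 Δli and with no filter, and its adjusted p ranged from 0.00958 to 0.0978 over the 15 alternatives.

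Ndufa12, an accessory subunit of the arm that binds NADH, was the other member of complex I that rose. It had 118, 96.2 and 94.5 FPKM in the controls and 147, 157 and 143 FPKM in the libraries labelled med23 Δli (log2 fold change 0.54, SE 0.14, adjusted p = 0.0314). The groups did not overlap. The gene lies on the plus strand at chr10:94198720-94221443, and its adjusted p stayed under 0.05 in 9 of 15 alternatives (0.0260 to 0.118). Ndufs4, an accessory subunit of the same arm, came close with 37.8, 28.9 and 26.6 against 44.8, 48.3 and 40.9 FPKM (0.53, SE 0.16, adjusted p = 0.0524), and Ndufa5 had the second largest log2 fold change, 0.60, with an SE of 0.25 and an adjusted p of 0.127. Of the core subunits that carry electrons, Ndufs1, which holds iron-sulfur clusters, had 37.5, 30.8 and 26.5 against 39.8, 39.1 and 38.4 FPKM (0.32, SE 0.15, adjusted p = 0.161). Ndufv1, which binds NADH, had 119, 136 and 97.4 against 119.9, 122 and 105 FPKM (−0.02, SE 0.16, adjusted p = 0.955). The most abundant member, Ndufb9, had 307, 380.3 and 247 against 354, 367 and 329 FPKM (adjusted p = 0.459). Of the core subunits named, Ndufv1 overlapped between the groups, and Ndufs1 did not overlap but was not called. Most accessory subunits overlapped or differed by less than the test could call, and 27 of 35 members had a log2 fold change above 0.

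In complex III no member passed. Uqcrc1, a core protein, had 140.2, 179 and 110.4 FPKM in the controls and 157, 155 and 145 FPKM in the other group. Uqcrfs1, the Rieske iron-sulfur protein, had 160.2, 157 and 129.5 against 169.6, 173 and 154 FPKM, and Cyc1, cytochrome c1, had 201, 201 and 161 against 195, 189.9 and 181 FPKM. These 3 overlapped, with log2 fold changes of 0.12, 0.16 and 0.02. Uqcrc2, the other core protein, had the largest log2 fold change of the complex, with 102, 89.6 and 82.2 against 115, 129 and 114 FPKM (0.39, SE 0.14, adjusted p = 0.0779), and its groups did not overlap. Uqcrq, the most abundant member of the complex, spanned 797 to 1092 FPKM in the controls and 871 to 1119.6 FPKM in the other group (0.12, SE 0.18, adjusted p = 0.646).

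Uqcr11, a small subunit of complex III, was the member of a complex with the lowest log2 fold change. It had 437, 608 and 361 FPKM in the controls and 348, 343 and 342 FPKM in the libraries labelled med23 Δli (−0.41, SE 0.20, adjusted p = 0.163). All 3 of the latter lay below every control, the nearest by a small margin, and did not pass. Its adjusted p ranged from 0.0379 to 0.397 over the alternatives and was under 0.05 with quantile normalization and without control replicate 3. Cycs, the carrier, had 85.6, 62.7 and 84.8 against 99.4, 94.8 and 93.9 FPKM (0.32, SE 0.15, adjusted p = 0.170), groups that did not overlap.

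In complex IV, 3 of 13 tested members rose (23.1%, beside 11.6% of all tested genes). Cox6a2, the heart and muscle form of subunit VIa, had 0.327, 0.549 and 0.812 FPKM in the controls and 3.39, 2.20 and 5.25 FPKM in the libraries labelled med23 Δli (log2 fold change 2.47, SE 0.38, adjusted p = 0.00648). Every liver labelled med23 Δli exceeded the highest control. It was the largest log2 fold change of any member, though its size depended on the pseudocount (1.52 with a pseudocount of 1 and 2.67 with 0.01), and its adjusted p stayed under 0.05 in 14 of 15 alternatives, all but the fit with no filter (0.00487 to 0.0723 over the 15). The levels remained low beside the liver form Cox6a1, which had 1000.1, 1249 and 875 FPKM against 950.2, 914 and 823 FPKM (−0.20, SE 0.17, adjusted p = 0.406). Of the summed FPKM of both forms, Cox6a2 made up 0.0327%, 0.0439% and 0.0926% in the controls and 0.356%, 0.240% and 0.634% in the other group (exact permutation p = 0.1, the smallest that 3 against 3 allows).

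Cox6a2 lies on the minus strand at chr7:128205435-128206387 and overlaps Itgad, and these unstranded libraries could not part the genes by strand. Itgad was at most 0.129 FPKM in any library. Of the 14 muscle markers, 2 reached the limit for testing (Mylpf, and Des, which stellate cells also express) and 3 (Myh1, Myh2 and Myh4) were listed at 0 in every library. Their sum was 4.57 to 7.01 FPKM in the controls and 3.24 to 4.17 FPKM in the libraries labelled med23 Δli and was mostly Des, which had 3.99 to 4.64 FPKM in the controls and 2.42 to 3.25 FPKM in the other group. Mylpf had 0.293 to 0.853 against 0.323 to 0.728 FPKM. Acta1, the actin of skeletal muscle, was at most 0.0643 FPKM, and Ckm, muscle creatine kinase, was at most 0.103 FPKM. The part of muscle RNA in the value of Cox6a2 was not tested.

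Cox7a2l is named as a complex IV gene, and its product is known as a factor for supercomplexes of complexes III and IV. Neither the form of its protein nor supercomplexes were examined in these livers. It had 122, 134 and 134 FPKM in the controls and 194, 206 and 178 FPKM in the libraries labelled med23 Δli (log2 fold change 0.57, SE 0.13, adjusted p = 0.0194). The gap between the groups was wide relative to the spread within them. The gene lies on the minus strand at chr17:83501918-83517330. Its adjusted p was under 0.05 in 13 of 15 alternatives (0.0188 to 0.0877), and the call was lost without med23 Δli replicate 1 or 2. Cox5b, a subunit of the matrix side at chr1:36691449-36693681, had 308, 408 and 312 FPKM against 456, 531 and 495 FPKM (0.54, SE 0.16, adjusted p = 0.0463). Its groups did not overlap, but the call was the least stable of the 6, with an adjusted p under 0.05 in 5 of 15 alternatives (0.0235 to 0.157). Cox5a, which binds beside it, had 285, 268 and 190.5 against 328, 321 and 278 FPKM (0.34, SE 0.18, adjusted p = 0.210).

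**Figure D5:**
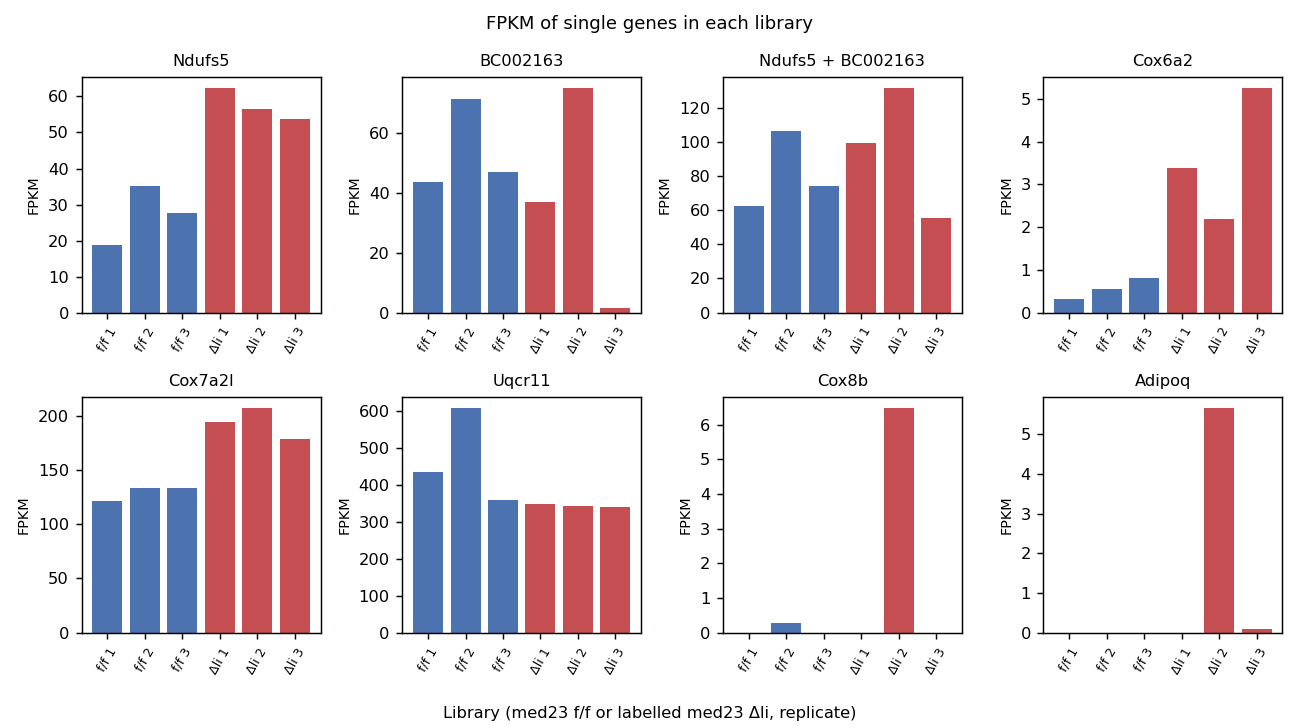
FPKM in each of the 6 libraries (controls blue, libraries labelled med23 Δli red; each panel has its own axis from 0) for Ndufs5, its copy BC002163 and their sum, Cox6a2, Cox7a2l, Uqcr11, Cox8b and the adipocyte gene Adipoq. The sum of Ndufs5 and its copy overlaps between the groups, and Cox8b and Adipoq are high in med23 Δli replicate 2 alone.

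The other tissue forms of complex IV did not pass the test. Cox8b, a form of heart, muscle and brown fat, had 0, 0.277 and 0 FPKM in the controls and 0, 6.47 and 0 FPKM in the other group, so 1 liver decided its value (log2 fold change 1.37, SE 1.55, adjusted p = 0.547, and −0.64 without that liver). In that liver, med23 Δli replicate 2, fat markers stood out as well: Ucp1, the uncoupling protein of brown fat, had 2.29 FPKM, Adipoq 5.65 FPKM and Cfd 23.8 FPKM, where no other library exceeded 0, 0.0907 and 0.244 FPKM. The 16 adipocyte markers summed to 328 FPKM there, to 153 to 239.6 FPKM in the controls and to 105 and 133 FPKM in the other 2 libraries labelled med23 Δli. Of the 9 markers tested, Pparg rose and Cidec fell. Their part in the value of Cox8b was not tested. Cox7a1, a form of heart and muscle, had 3.21, 3.12 and 1.98 against 2.01, 3.39 and 1.28 FPKM (−0.38, SE 0.35, adjusted p = 0.459), or 1.52%, 1.61% and 1.49% against 0.979%, 1.39% and 0.960% of the summed FPKM of Cox7a1 and Cox7a2 (exact permutation p = 0.1). The liver forms Cox7a2, at 131 to 208 against 132 to 241 FPKM, and Cox8a, at 396 to 542 against 416 to 517 FPKM, overlapped, as did Cox6b1. Cox7b had 126, 105 and 111 against 147, 166 and 131 FPKM (0.37, SE 0.14, adjusted p = 0.10).

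In complex V no member passed. Atp5b, the catalytic beta subunit, had 662, 628 and 590.2 FPKM in the controls and 766, 731 and 687 FPKM in the other group, which did not overlap (0.22, SE 0.13, adjusted p = 0.260). Atp5a1, the alpha subunit, had 395, 388 and 298 against 376, 372 and 352 FPKM (0.04, SE 0.15, adjusted p = 0.884). The largest log2 fold change of the complex was that of Atp5f1, a subunit of the peripheral stalk, with 164, 177 and 134 against 216, 215 and 205 FPKM (0.43, SE 0.14, adjusted p = 0.0673). Atp5j, another stalk subunit, had 275, 285 and 247 against 309, 342 and 306 FPKM (adjusted p = 0.206). Atp5k, the most abundant, had 617, 878 and 639.7 against 692, 932 and 645 FPKM (adjusted p = 0.782). Of the 15 members, 5 had groups that did not overlap, all higher in the libraries labelled med23 Δli, beside the background of 23.3%.

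Subunit c of the ATP synthase, which forms the rotating ring, is encoded by 3 genes whose mature products are the same protein. Atp5g1 had 280.4, 309.9 and 218 against 323, 303 and 287 FPKM, Atp5g2 had 239.5, 277 and 224 against 316, 312 and 279 FPKM, and Atp5g3 had 681, 774 and 495 against 692, 618 and 531 FPKM. None of them passed (adjusted p = 0.426, 0.157 and 0.833). Their shares of the summed FPKM, which no scaling of a whole library can change, separated the groups for 2 of the 3. The shares are not independent of each other, and the nearest values of Atp5g3 were 52.8% and 52.0%. By FPKM, 23.3% of all tested genes were higher and 20.4% lower with no overlap of the groups. Atp5g3 made up 56.7%, 56.9% and 52.8% in the controls and 52.0%, 50.1% and 48.4% in the other group, and Atp5g1 made up 23.4%, 22.8% and 23.3% and then 24.2%, 24.6% and 26.1% (exact permutation p = 0.1 for each, the smallest possible). The share of Atp5g2 overlapped (exact permutation p = 0.2).

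The genes set apart behaved differently from each other. Ndufa4 had 809, 872 and 760.1 FPKM in the controls and 866, 816 and 852 FPKM in the other group (0.06, SE 0.13, adjusted p = 0.783). Ndufa4l2, its low homolog, known to be induced by lack of oxygen, had 0.884, 0.983 and 0.462 against 0.153, 0.307 and 0.420 FPKM (−1.16, SE 0.40, adjusted p = 0.0759; −0.45 with a pseudocount of 1). The mean of Ndufa4l2, 0.535 FPKM, reached the limit for testing only through the controls (0.776 against 0.293 FPKM), and it was not tested with the filter at 1 FPKM. Its test thus draws on the group where it is high and is no support for a fall. Its groups did not overlap, and the difference passed in 1 of 14 alternatives, that without control replicate 3 (adjusted p = 0.0353 by limma). Its locus overlaps Shmt2, which had 41.3 to 58.4 FPKM in the controls and 53.0 to 66.6 FPKM in the other group. Atp5sl, annotated as Dmac2 at chr7:25619414-25625551 and known as an assembly factor of complex I, rose from 12.0, 12.7 and 12.1 FPKM to 19.8, 18.4 and 14.8 FPKM (0.51, SE 0.15, adjusted p = 0.0416, under 0.05 in 7 of 15 alternatives). Atp5s had 4.10, 2.47 and 3.25 against 3.09, 3.43 and 4.25 FPKM and overlapped.

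Genes that build or feed the complexes were examined in the same fit. Of 7 tested subunits outside the name rule, among them Cox4i1 and Ndufab1, 0 passed in limma (Cox4i1 had an adjusted p of 0.831 and Ndufab1 of 0.0877, and the latter alone had an unadjusted p under 0.05), and their median log2 fold change was 0.01. None of the 13 subunits encoded by mitochondrial DNA is listed in the table used. Of all tested genes, 11.6% rose and 9.48% fell, and the shares of the lists below are to be read against these. Of 15 tested for complex I, Timmdc1 rose (6.67%; 0.52, SE 0.14, adjusted p = 0.0350). Of 4 tested for complex II, 1 fell (25.0%): Sdhaf1, which helps to place its iron-sulfur clusters, fell from 16.3, 26.6 and 18.6 FPKM to 10.9, 10.6 and 11.4 FPKM (−0.87, SE 0.19, adjusted p = 0.0186), while no subunit of that complex fell. Uqcc1, 1 of 6 tested for complex III, fell (−0.58, SE 0.15, adjusted p = 0.0338). Of 22 tested for complex IV, Cox16 rose (0.65, SE 0.16, adjusted p = 0.0273), or 4.55% of the list, and Cox10, Cox15 and Coa7 fell, or 13.6%. Cox10 and Cox15 make heme a for complex IV, and Cox10 had 9.88, 12.5 and 9.08 against 6.54, 5.85 and 6.61 FPKM (−0.71, SE 0.16, adjusted p = 0.0195). Of 3 tested for complex V, 0 passed in limma.

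In coenzyme Q synthesis, 1 of 13 tested genes rose (7.69%) and 2 fell (15.4%), few genes and near the background. Adck3, a regulator of the pathway, rose from 8.74, 4.74 and 6.49 FPKM to 17.6, 17.5 and 21.6 FPKM (1.53, SE 0.22, adjusted p = 0.00574), a change past 2-fold. The methyltransferases Coq3 (−0.85, SE 0.15, adjusted p = 0.00878) and Coq5 (−0.54, SE 0.13, adjusted p = 0.0234) fell. In the tricarboxylic acid cycle and pyruvate dehydrogenase, 3 of 16 tested genes rose (18.8%) and 1 fell (6.25%), again near the background. Suclg2, a subunit of succinyl-CoA synthetase, rose from 36.9, 34.7 and 40.2 FPKM to 66.7, 76.1 and 69.3 FPKM (0.92, SE 0.13, adjusted p = 0.00463), and Mdh2 and Dlat also rose. Idh3a, the catalytic subunit of isocitrate dehydrogenase, fell from 24.0, 23.5 and 26.9 FPKM to 13.6, 13.7 and 15.3 FPKM (−0.80, SE 0.13, adjusted p = 0.00711). Of 7 tested carriers of nucleotides, phosphate and protons, 0 passed in limma. Of 48 tested proteins of the large mitochondrial ribosomal subunit, 3 rose (Mrpl13, Mrpl24 and Mrpl33, with Mrpl24 at 0.67, SE 0.15, adjusted p = 0.0210), or 6.25%, and Mrpl45 fell, or 2.08% (−0.43, SE 0.12, adjusted p = 0.0375).

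The last list holds regulators of mitochondrial gene expression. Of 16 tested, 1 rose (6.25%) and 2 fell (12.5%), near the background. Sirt3, a mitochondrial deacetylase, rose (0.48, SE 0.13, adjusted p = 0.0351), and Esrra and Gabpb1 fell. Esrra, which encodes the nuclear receptor ERRα, had 26.0, 31.9 and 28.2 FPKM in the controls and 19.2, 18.4 and 19.9 FPKM in the libraries labelled med23 Δli (−0.58, SE 0.13, adjusted p = 0.0205), and its call held in 10 of 15 alternatives (adjusted p 0.0176 to 0.0874), lost with no filter, with the replicate block and without any 1 of the 3 libraries labelled med23 Δli. Ppargc1a, the coactivator PGC-1α, had 2.33, 0.645 and 4.40 against 5.11, 7.64 and 5.41 FPKM (1.59, SE 0.57, adjusted p = 0.0819), groups that did not overlap. Its value rested on single controls: without control replicate 3 it passed (2.17, adjusted p = 0.0178), and without control replicate 2 the log2 fold change was 0.87 (adjusted p = 0.0924). Nrf1, Tfam and Gabpa had log2 fold changes of −0.31, −0.18 and −0.01 (adjusted p = 0.150, 0.323 and 0.950), and Ppargc1b was below the limit for testing at 0.158 to 0.461 FPKM. With all 6 libraries none of these 5 genes is called.

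The promoters of the members were searched for motifs of factors known from this gene class. RefSeq (GRCm38.p6) windows of 250 bases before to 50 after the start were at hand for 70 of the 84 members. On both strands, the near-palindromic element of NRF1 was found in 24.3% of the members with a window, in 11.6% of tested genes and in 5.19% of all genes. CCGGAAG, a core bound by ETS factors such as GABPA, was found in 22.9%, 20.2% and 9.93%, AANATGGCG, the core of YY1, in 15.7%, 6.13% and 2.76%, and TNAAGGTCA, an element of ERR receptors, in 4.29%, 1.03% and 1.43%. No motif overlaps another in the windows printed. No enrichment was tested, and a match is a description of letters and not of binding. The 150 bases before the RefSeq start, 5′ to 3′ on the strand of the gene, are shown for a member called higher (Ndufs5), the most abundant member (Cox6a1) and the complex member with the lowest log2 fold change (Uqcr11), at chr4:123718187-123718336, chr5:115348959-115349108 and chr10:80406822-80406971, all on the minus strand, with the matched letters in capitals. GENCODE starts lie upstream of some RefSeq starts, and its exons cover 16, 23 and 9 of the bases shown:
Ndufs5: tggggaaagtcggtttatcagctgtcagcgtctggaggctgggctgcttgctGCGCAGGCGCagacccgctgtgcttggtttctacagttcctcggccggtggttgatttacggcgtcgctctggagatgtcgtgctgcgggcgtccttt
Cox6a1: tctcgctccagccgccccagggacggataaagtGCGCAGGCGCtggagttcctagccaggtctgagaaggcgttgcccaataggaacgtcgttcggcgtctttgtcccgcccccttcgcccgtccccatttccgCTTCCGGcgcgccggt
Uqcr11: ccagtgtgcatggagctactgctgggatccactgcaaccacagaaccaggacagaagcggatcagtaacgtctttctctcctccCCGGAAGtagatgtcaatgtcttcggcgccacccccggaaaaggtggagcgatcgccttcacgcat

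The NRF1 element stood before Ndufs5 and Cox6a1, and the ETS core before Uqcr11 and, on the other strand, before Cox6a1. Of the other members called higher, Ndufa12, Cox5b and Cox7a2l had no match of any motif in their windows, and Atp5sl matched YY1 alone. Cox6a2 had no window.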

How the data were processed

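Whole livers of 6 mice were profiled, 3 med23 f/f controls (labels: wt) and 3 labelled med23 ko. Per the labels and the methods of the study, the authors made libraries with TruSeq v2, a kit that does not mark the strand, aligned paired reads to mm10 with TopHat after FastQC and ran Cuffdiff; versions, annotation and options are not given in the sources used here. The deposited values used are FPKM, fragments scaled by transcript length and library size, for 24346 genes in each library. The deposited group FPKM, log2 fold changes, test statistics, p-values, q-values and calls of the authors were not used. FPKM keeps no counts: among low values the commonest ratio between 2 libraries was shared by at most 3 genes, so no whole reads could be recovered, and the spread between mice is the only error given.

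Members were the gene symbols that start with Nduf followed by a, b, c, s or v and a digit, Sdha to Sdhd, symbols that start with Uqcr, Cox 4 to 8 followed by a, b or c, symbols that start with Atp5, and Cyc1 and Cycs. The 11956 genes whose mean over all libraries reached 0.5 FPKM were compared on log2(FPKM + 0.1) with limma 3.58.1 in R 4.3.3 (lmFit, eBayes with a trend, no block, Benjamini-Hochberg adjustment over all of them). A gene passed at an adjusted p under 0.05. In simulated data on 11956 genes, 49 of 100 genes changed by 1 on the log2 scale and 91 of 100 changed by 2 passed, with 10 false calls. For single values an exact permutation test of 3 against 3, two-sided, was run.

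Named members are those that passed and led their complex, those past 2-fold, isoform groups, catalytic or defining subunits, and the highest of each complex. Ndufs4, Ndufa5, Uqcr11, Uqcrc2, Atp5f1, Atp5j, the ends of the ranges and single genes of other lists were named after their values were seen. The members, lists and tests were chosen with earlier results of these data known. As alternatives, each library was left out, a replicate block was added, eBayes was run robustly or with no trend, values were centred on the median or quantile-normalized, the filter was set at 1 FPKM or dropped, and the pseudocount was 1 or 0.01. The NRF1 element searched has 10 letters, 1 of them free, and is given by name. Positions and transcripts are from GENCODE mouse release 21 (GRCm38, the assembly of mm10), and promoters from RefSeq. Python 3.11.15, pandas 2.3.3, numpy 2.4.6 and matplotlib 3.10.9 were used.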

Additional observations from a re-analysis of the deposited data

How the results depend on the processing

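The replicate numbers do not pair the livers: the deviations of same-numbered libraries from their group means correlated at −0.02, −0.05 and −0.12. With the replicate block, 3 members were higher (Cox6a2, Cox7a2l and Ndufs5), and 809 of all tested genes were higher and 614 lower. The genes of other lists are pooled here: further subunits, assembly, coenzyme Q, the tricarboxylic acid cycle, carriers, regulators and large mitochondrial ribosomal proteins. Of these pooled genes 10 were higher and 11 lower in the fit as reported, and 6 were higher and 3 lower with the replicate block. With no filter 24346 genes were tested, 1 member was higher and 0 were past 2-fold. Of all genes 297 were higher and 225 lower, and of the pooled genes 4 were higher and 3 lower. Quantile normalization gave 1 member lower. When each library was left out in turn, members higher numbered 1 to 5, members lower 0 to 2 and members past 2-fold 1 to 3. All tested genes higher numbered 397 to 1723 and lower 343 to 1420, and the pooled genes numbered 3 to 12 higher and 2 to 22 lower. The median log2 fold change ranged from −0.013 to 0.27 in complex I and from 0.076 to 0.35 in complex IV. Without med23 Δli replicate 1, and likewise without replicate 2, Cox6a2 was the single member that passed. The cause was not tested. The other 143 values of this kind kept their direction or stayed within 1.5 times or the spread between mice. Among single genes 660 values kept their call, 38 lost it, 8 gained it and 0 turned the direction of a call.

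FPKM keeps no counts, so no interval from counting is given, and members near 0 such as Cox8b cannot be read closely. Of the 84 members, 35 share a stretch of at least 100 bases with at least 95% identity with transcripts of other genes, and 36 overlap another gene.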

Other observations

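Transcripts of the members are short, with a median length of 680 bases beside 2087 bases over 11159 tested genes with a length. Across the 81 members (genes, which are not independent replicates) the log2 fold change had a Spearman correlation of 0.14 with transcript length and of −0.33 with GC content, beside 0.08 and −0.19 over all tested genes with a value. The difference between control replicates 2 and 3 had a median of 0.49 (log2) over the members, beside −0.02 over all tested genes, and correlated with transcript length at −0.34 over the members and at −0.27 over all tested genes. What these values share with the differences between the groups was not tested.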
